A study of Mus musculus with 22 samples.

Results

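The genes described here are 60 named loci whose level was lower in Tsc1-mutant than in control Purkinje cells (PCs) in both of 2 separate contrasts of sorted PCs, and they were then followed in ribosome-bound mRNA. They were chosen by their own sorted values, out of 1114 eligible named loci and 66494 loci in all. The choice rested on 2 differences of mean log2(value + 1). The first, called A, was mutants 167 and 191 minus controls 144a and 176, which all carry submission number MS3005. The second, called B, was mutants 61, 74 and 103 (submission MS2723) minus controls 45 and 48 (MS2872). The 60 loci had the lowest larger value of A and B among loci with a mean of 8 or more, after 10 symbols had been left out by rule (Itpr1, Doc2b, Camk2a, Inpp4a, Shank2, Cdk16, Slc1a6, Homer3, Dner and Ebf1). Names came only from the study's own gene lists, which hold loci that the study selected or found changed. A named locus is thus not a random one. Among these lists are loci that the study called in TRAP and loci whose TRAP level changed relative to total RNA. TRAP values therefore had a part in which loci could become members. Since A and B fixed the direction, the sorted values are given as a description with no test.

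The study asked how loss of Tsc1 changes the transcriptome and the ribosome-bound mRNA of PCs. Total RNA was sequenced from 10 libraries of sorted GFP-positive PCs (5 mutant and 5 control), and translating ribosome affinity purification (TRAP) was sequenced in 12 libraries, with 3 libraries for each combination of genotype and rapamycin treatment. Mutants were Tsc1 fl/fl with L7Cre, and controls were Tsc1+/+. Sorted PCs carried L7GFP. The study describes the sorted controls without L7Cre in one place and with it in another, and which holds for these libraries was not settled here. TRAP animals carried L7Cre with Rosa26fsTRAP, an allele that tags the ribosomal protein RPL10A with EGFP after Cre recombination. L7 is the Pcp2 promoter, which drives expression in PCs. The labels give the strain background as C57BL/6, the methods name 2 ages for the sorted cells, and the labels give neither an age per library nor a dose or schedule of rapamycin. Controls 144a and 144b share a number but not a submission. Whether they came from one animal is not settled. The study counts as many sorted animals per genotype as libraries in one place and fewer in another. Library 144b (MS2872) did not enter A or B. Because no sorted submission other than MS3005 holds both genotypes, genotype and submission cannot be told apart in B. By the methods, each TRAP library was made from the cerebellum of one animal.

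PCs are the GABAergic output neurons of the cerebellar cortex and rely on calcium channels, inositol phosphate signalling and endocannabinoid release at their dendrites. The TSC1 and TSC2 proteins together restrain mTORC1, a kinase complex that drives growth and translation, and rapamycin inhibits mTORC1. A sorted library holds all RNA of the sorted cells and of whatever else passed the gate, while TRAP enriches the mRNA on tagged ribosomes of the cells that express Cre. In either, fewer PCs and less RNA of a gene per PC cannot be told apart.

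Depth was 43.3 to 86.3 M estimated fragments in sorted libraries and 2.47 to 6.38 M in TRAP libraries. The 10 highest loci took 6.10% to 9.82% of a sorted library and 40.5% to 72.6% of a TRAP library, so low values in TRAP rest on few fragments. TRAP mutant 3 stood apart with a total signal of 860843, against 5142314 and 5261125 in the other 2 mutants without rapamycin and 3009387 or more in every other TRAP library. The PC markers Pcp2 and Calb1 were high in both tables, with control means of 16.95 and 14.27 (sorted) and 10.82 and 10.65 (TRAP) on the log2(value + 1) scale. The log2 of the summed signal of 23 PC markers was 13.75 to 13.94 in TRAP controls and 13.56 to 13.75 in TRAP mutants. With rapamycin this sum was 13.48 to 13.59 in controls and 13.64 to 13.76 in mutants. In sorted PCs this sum was 18.85 to 19.74 in controls, 18.84 and 18.92 in mutants 191 and 167, and 17.36, 16.71 and 16.12 in mutants 74, 61 and 103. Thus the sum was lower in the 3 MS2723 mutants than in any other sorted library. Tsc1 itself was not analysed here, so the genotype labels were not checked on it.

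Across the 60 members, the median of A was -1.01 (range -2.76 to -0.83) and the median of B was -2.02 (range -4.46 to -0.86). The other 1054 eligible named loci had medians of -0.04 and -0.38, and the 12362 loci with a mean of 8 or more had medians of -0.02 and 0.04. B was lower than A for 53 of the 60 members, by 2 or more for 13 of them. Between the members A and B were nearly unrelated (Pearson r = -0.02 over 60 loci that share the same libraries, a description). The 5 mutants all lay below the 5 controls for 31 of the 60 members, against 1.55% of the 12362 loci, a share that the choice of members fixed in part and from which nothing is read. The members just inside the limit were Galnt15 (larger value of A and B -0.84), Pex26 (-0.83) and Foxp4 (-0.83), and the loci just outside it were Hmga1 (-0.82), 6030419C18Rik (-0.81) and Tlnrd1 (-0.81).

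Control 144b is the one sorted library that entered neither A nor B, although it entered the mean used as a minimum. It lay above all 5 mutants for 49 of the 60, against 14.5% of all 12362 loci, but the mutants in this count did choose the members. Its level was below that of 144a, the library of the same number that did enter A, for 53 of 60 members (median difference -0.48, against -0.04 over all loci). Library 144a held the highest sorted value for 26 members. With 144b in its place the median of A was -0.76 and A stayed below 0 for all 60. Without 144a, leaving 176 as the one control, the median was -0.63. The mutants of A and control 176 had chosen the members, so values below 0 were in large part fixed beforehand. No value over all loci is given beside these, and nothing is read from the 60 of 60.

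**Figure D1:**
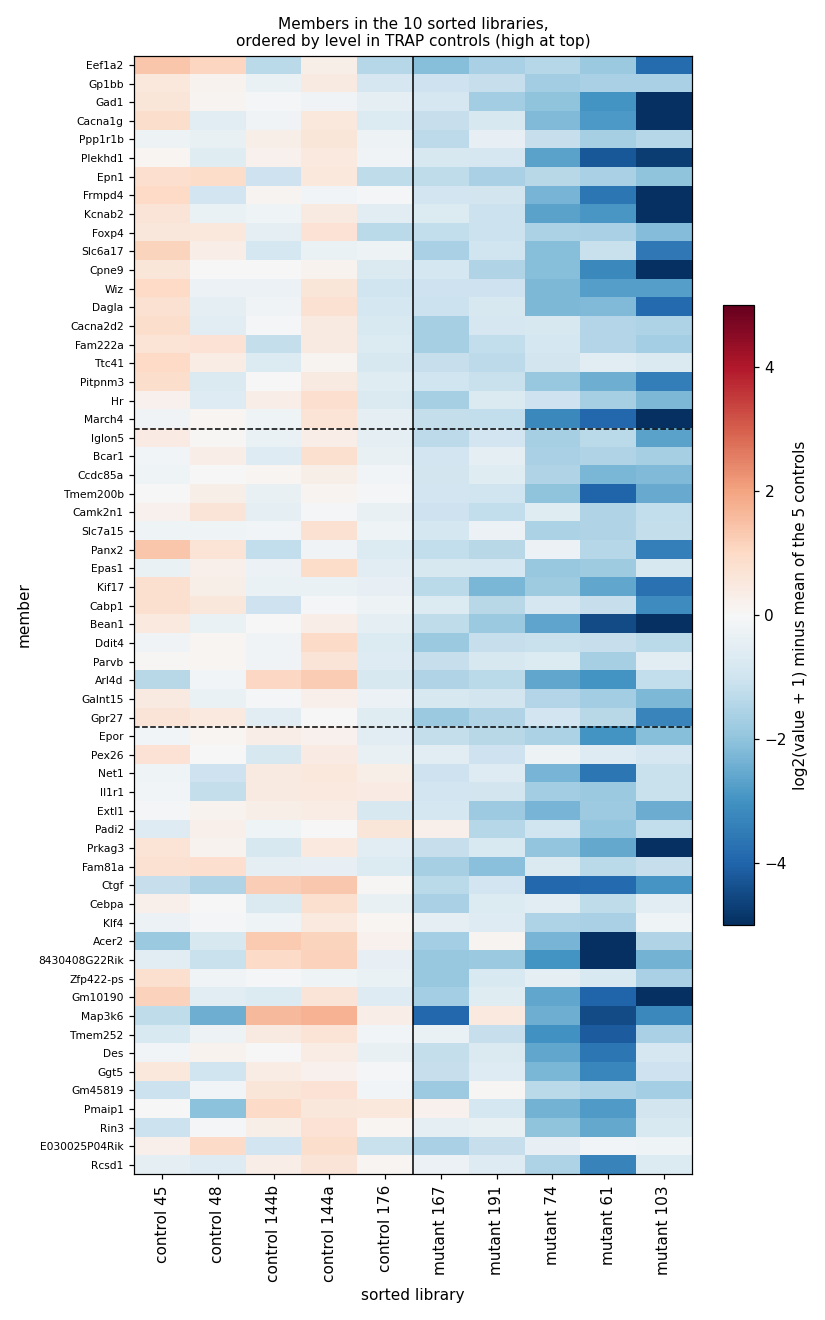
Heat map of the 60 members (rows) in the 10 sorted libraries (columns), coloured by log2(value + 1) minus the mean of the 5 controls and cut at -5 and 5, with rows ordered by the mean level in TRAP controls without rapamycin. The dashed lines separate 20 members with a TRAP control mean of 5 or more, 16 with 2 to 5 and 24 below 2. Mutant 103 is darkest in the upper rows and mutant 61 in the lower rows.

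The members lie on 19 autosomes and the X chromosome, with 9 on chromosome 4. Their median gene span was 27.7 kb against 28.4 kb for the other eligible named loci, and their median transcript length was 3029 against 2802 bases. Of the 60, 58 are annotated as protein coding. One pair, Kif17 and Camk2n1, lay within 500 kb of each other. For E030025P04Rik and Bcar1 the assembled locus lies on the strand opposite to the named transcript, and for Slc7a15, Prkag3 and Zfp422-ps it has only a general exon overlap, so that these 5 assignments are uncertain. March4 appears as a spreadsheet date in the study's list and was named from its transcript.

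Promoter windows (250 bases before to 50 after a start, RefSeq, GRCm38.p6) were given for 45 of the members. A cyclic AMP response element (TGACGTCA, a palindrome, searched as both strands) was found in 2 of the 45 (4.44%), against 4.57% of 810 other eligible named genes and 2.03% of all 27025 genes. The GC box (GGGCGG, either strand) stood in 68.9% of members, 72.7% of other eligible genes and 38.2% of all genes. The TATA box (TATAAA, either strand) stood in 8.89%, 8.77% and 15.7%, and the ACGTG core of hypoxia response elements in 31.1%, 27.3% and 21.8%. The 2 genes with the cyclic AMP response element, Arl4d and Kif17, are among the 12 lowest members, and their sites are shown with the element in capitals, at 26 bases before the start of Arl4d (chr11:101665504-101665533, plus strand) and 86 bases before a start inside the span of Kif17 (chr4:138262154-138262183, plus strand).
Arl4d: gccgcgtcgtgTGACGTCAcgagagggttt
Kif17: attccgtcctgTGACGTCAcggaggttgcc
A match of letters does not show that a factor binds there.

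The members differed widely in their level in TRAP. In TRAP controls without rapamycin, 20 members had a mean log2(value + 1) of 5 or more, 16 of 2 to 5, and 24 below 2, of which 11 were listed at 0 in all 3 libraries. The members below 2 made up 40.0% of the 60, against 25.2% of the other eligible named loci. The medians of A were -1.12, -0.995 and -0.96 from the lowest to the highest class, with lowest values of -2.76, -1.67 and -1.35, and those of B were -1.61, -1.88 and -2.94. The rule held every A and B below the limit. Over the 60 members the TRAP control level had a Pearson r of 0.30 with A, -0.41 with B and -0.49 with B minus A. The other 1054 eligible loci had -0.43 with B minus A. These are a description across loci that share all libraries and, in part, their depth. Levels are not per length, and the median transcript lengths of the classes were 3366, 2406 and 3767 bases from the lowest to the highest (median gene spans 9.28, 29.5 and 49.7 kb).

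**Figure D2:**
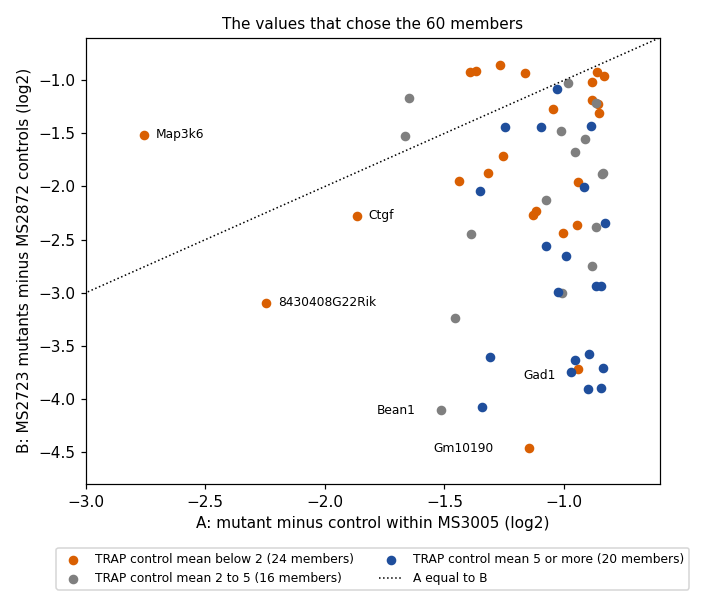
Each point is one of the 60 members, with A on the x axis and B on the y axis, both in log2 units, and the colour gives its mean level in the 3 TRAP controls without rapamycin. Members well detected in TRAP (mean of 5 or more, median B -2.94) lie further below the line of equal values than members below 2 (median B -1.61).

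The 2 ends of this order also differed in which mutant library was lowest. Among the 20 members with a TRAP control mean of 5 or more, mutant 103 held the lowest sorted value for 15 and mutant 61 for 2. Among the 24 members below 2, mutant 61 held it for 14 and mutant 103 for 3. Mutants 61, 74 and 103 entered B, which chose the members, and no such count is given over other loci. The other eligible loci had median B of 0.07, -0.06 and -0.97 from the lowest to the highest class. Nothing particular to the members is read from these counts. The class medians of the difference from the control mean were -3.51 in mutant 103, -2.02 in 61 and -1.94 in 74 for the well-detected members, and -1.19, -2.70 and -1.997 for those below 2. In mutants 167 and 191 the medians lay between -1.17 and -0.76 in all 3 classes. The PC marker sum was lowest in mutant 103 (16.12). The summed signal of 12 vascular markers was lowest in mutants 61 and 74 (12.90 and 13.50, against 14.61 to 15.37 in the other mutants and 14.34 to 15.77 in controls), and 8 of these 12 were listed at 0 in all 3 TRAP controls. Of the PC marker list 19 of 23 loci had A and B below 0 (medians -0.33 and -3.65), and of the vascular list 7 of 12 (medians -0.48 and -0.97). The summed signal of 7 astroglial markers was 18.40, 18.70 and 18.51 in mutants 74, 61 and 103, against 17.15 and 18.11 in controls 45 and 48. It was 18.08 to 18.43 in the other controls and 18.01 and 18.09 in mutants 191 and 167. The sum of 3 oligodendrocyte markers was 15.79, 15.84 and 16.25 in mutants 74, 61 and 103, against 14.51 to 15.67 in controls. Their median B was -0.20, and that of the astroglial markers 1.57. The sum of 17 microglial markers was 14.24 to 15.41 in mutants and 14.15 to 16.00 in controls. What part these other cells had in the members' values was not tested.

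Membrane excitability and calcium entry were represented by 4 members. Cacna1g, the Cav3.1 T-type calcium channel, gave sorted log2(value + 1) of 12.99 and 11.78 in controls 144a and 176, 13.34, 11.89 and 12.25 in controls 45, 48 and 144b, 11.31 and 11.66 in mutants 167 and 191, and 9.59, 10.23 and 7.30 in mutants 61, 74 and 103. The 5 mutants all lay below the controls, and mutant 103 was far below the other 4. Cacna2d2, an auxiliary calcium channel subunit whose loss causes ataxia in mice, had A and B of -1.10 and -1.44, so that it was nearly equally lower in both contrasts. Kcnab2, a potassium channel beta subunit, had -0.84 and -3.71, and the large-pore channel gene Panx2 had -0.88 and -2.75. These genes come from a fixed list of 24 ion channel loci, of which 16 were eligible, with medians of -0.57 (A) and -2.15 (B).

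Members of 5 further lists (transmitter and GABA, phosphoinositide and diacylglycerol, scaffold, vesicle and calcium) are given next. Gad1, which makes GABA and is expressed throughout these inhibitory neurons, gave 12.14 and 11.89 in controls 144a and 176, 12.91, 12.46 and 12.22 in controls 45, 48 and 144b, 11.49 and 10.61 in mutants 167 and 191, and 9.34, 10.33 and 7.16 in mutants 61, 74 and 103. Its groups did not overlap, and mutant 103 was the lowest. Dagla, which makes the endocannabinoid 2-arachidonoylglycerol, had A and B of -0.87 and -2.94. Pitpnm3, named for the phosphatidylinositol transfer protein family, had -0.99 and -2.66. Frmpd4, a scaffold that binds PSD-95, had -0.85 and -3.90, and Epn1, an endocytic adaptor of clathrin coats, had -1.08 and -2.56. Cabp1, a neuronal calcium-binding protein, had -0.87 and -2.38. Camk2n1, an endogenous inhibitor of CaMKII, had -0.91 and -1.56. The eligible loci of these lists had medians of A and B of -0.31 and -0.48 (transmitter and GABA), -0.37 and -1.79 (phosphoinositide and diacylglycerol), -0.25 and -3.26 (scaffold), 0.03 and -1.78 (vesicle) and -0.36 and -2.38 (calcium).

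Of the 12 members with the lowest larger value of A and B, 7 had a TRAP control mean of 2 or more and 5 had one below 2. Among the 7, Bean1, one of the fixed PC markers (chr8:104170442-104219122, plus strand), gave 10.28 and 9.52 in controls 144a and 176, 10.43, 9.61 and 9.91 in controls 45, 48 and 144b, 8.70 and 8.08 in mutants 167 and 191, and 5.49, 7.32 and 4.93 in mutants 61, 74 and 103. All 5 mutants lay below all 5 controls, and mutants 61 and 103 were lowest. March4, a membrane-bound ubiquitin ligase gene (chr1:72427112-72536930, minus strand), showed the same order, with A and B of -1.34 and -4.08. Kif17, a kinesin motor that carries NMDA receptor subunits along dendrites, gave 9.42 and 9.33 in controls 144a and 176, 10.55, 10.04 and 9.41 in controls 45, 48 and 144b, 8.39 and 7.45 in mutants 167 and 191, and 7.17, 7.99 and 6.00 in mutants 61, 74 and 103. Eef1a2, the neuronal and muscle form of translation elongation factor 1A, had A and B of -1.31 and -3.61, and control 176 (10.02) lay just below mutant 74 (10.03). The orphan receptor gene Gpr27 had -1.39 and -2.44. Fam222a had -1.35 and -2.04, with control 144b within the range of the mutants.

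The 5 members below 2 included the 3 with the lowest A of all 60, Map3k6, 8430408G22Rik and Ctgf. Map3k6, a kinase of the stress-activated MAP kinase cascade, gave 12.17 and 10.75 in controls 144a and 176, 9.14, 7.96 and 12.04 in controls 45, 48 and 144b, 6.49 and 10.92 in mutants 167 and 191, and 5.96, 7.95 and 7.21 in mutants 61, 74 and 103. Mutant 191 overlapped the controls and mutant 167 did not, so that the low A came mainly from mutant 167. Ctgf, a secreted matrix protein of connective tissue and vessels also named Ccn2 (chr10:24595442-24598683, plus strand), gave 13.05 and 11.76 in controls 144a and 176, 10.54, 10.17 and 12.90 in controls 45, 48 and 144b, 10.34 and 10.73 in mutants 167 and 191, and 7.79, 7.74 and 8.72 in mutants 61, 74 and 103. Control values themselves spanned 10.17 to 13.05, with 144a and 144b highest, control 45 between mutants 191 and 167, and control 48 below both. The locus 8430408G22Rik, annotated as Depp1 and ranked first (chr6:116650609-116652794, plus strand), gave 10.90 and 9.33 in controls 144a and 176, 9.17, 8.62 and 10.69 in controls 45, 48 and 144b, 7.86 and 7.88 in mutants 167 and 191, and 3.26, 6.75 and 7.39 in mutants 61, 74 and 103, with no overlap. Acer2, an alkaline ceramidase, had A and B of -1.44 and -1.95. Fam81a had -1.32 and -1.88. Arl4d, a small GTPase of the ARF family and the last of the 7 detected in TRAP, had -1.67 and -1.52. Outside these 12, Des, the intermediate filament of muscle and pericytes, had -0.94 and -2.36, and Epas1, a hypoxia-inducible factor prominent in endothelium, had -1.01 and -1.48. Both belong to the 12 vascular markers. Des was listed at 0 in every TRAP control without rapamycin, whereas Epas1 gave 4.73, 4.31 and 1.69 there.

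Nutrient sensing was represented by Ddit4, which restrains mTORC1 through the TSC complex, and by Prkag3, a regulatory subunit of AMPK whose locus assignment is uncertain. Ddit4 gave 12.61 and 10.95 in controls 144a and 176, 11.48, 11.73 and 11.46 in controls 45, 48 and 144b, 9.79 and 10.48 in mutants 167 and 191, and 10.49, 10.53 and 10.31 in mutants 61, 74 and 103. Its 5 mutants all lay below every control, and it was 1 of 7 members lower in A (-1.65) than in B (-1.17). Prkag3 had -0.94 and -3.72. Of the fixed mTOR and nutrient list of 14 loci, 12 were eligible, with medians of -0.19 and -0.87.

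In TRAP without rapamycin, the comparison of mutants with controls asked whether the same genes were lower on PC ribosomes. Of the 60 members, 39 passed the filter (a mean of 2 or more over the 6 libraries), and 19 of these had a log2 fold change below 0 and 20 above. Their median was 0.06, against 0.07 over all 9658 loci tested. With the filter at 5 instead of 2 the members' median was -0.16, against 0.01 over 2916 loci. No member was lower past the study's thresholds (unadjusted limma p under 0.01 and fold change above 2), while 2 were higher, against 1.96% of all loci (189 of 9658). Both numbers describe the members that passed and are no measure of all 60, since the other 21 were too low to be tested. The lists that gave the names rest in part on the study's TRAP values. The comparison of members with all loci was thus in part fixed beforehand, and nothing is read from it.

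Members whose TRAP values lay lower in all 3 mutants than in all 3 controls were 8 of 39, against 6.81% of all loci, and those with all mutants higher were 7, against 8.55%. The filter took the mean over both groups, so a member low in one group could pass through the other. Among the higher members, Net1, Padi2, Pex26 and E030025P04Rik had control means of 1.79, 1.47, 1.83 and 0. Arl4d, counted as lower, and Galnt15, whose groups overlapped, had mutant means of 1.37 and 1.59. Nothing is read from these counts. At an unadjusted p under 0.05 there were 12 members, 6 lower and 6 higher, against 8.11% of all loci, and none of the 6 lower ones had an adjusted limma p under 0.558. Cacna1g gave 7.97, 7.94 and 7.69 in controls and 7.13, 7.14 and 6.89 in mutants, that is, a log2 difference of -0.82 (standard error 0.32, limma, adjusted p = 0.602). Cacna2d2 gave 6.15, 5.98 and 6.13 and 5.10, 5.16 and 5.36, Dagla 6.44, 6.12 and 6.44 and 5.46, 5.58 and 5.63, and Bean1 3.37, 3.62 and 3.14 and 2.30, 1.33 and 2.53. In each of these 4 genes the groups did not overlap, although no fold change passed the thresholds. The 3 lowest fold changes were those of Arl4d (-1.75), Galnt15 (-1.45) and Bean1 (-1.33), and each had adjusted p of 0.558 or more. Arl4d was listed at 0 in mutant 1 and Galnt15 in mutant 2, without which their values were -1.07 and -0.66, and without mutant 3 that of Galnt15 was -2.26. By contrast, Gad1 (-0.21), Epn1 (-0.09), Frmpd4 (0.06) and Kcnab2 (0.12), whose sorted B lay between -3.90 and -2.56, had TRAP groups that overlapped. Eef1a2 lay higher in all 3 mutants (9.72, 9.61 and 9.64) than in controls (9.32, 9.59 and 8.75), with a log2 fold change of 0.44 that passed neither threshold.

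Parvb, which encodes the focal adhesion protein beta-parvin (chr15:84232043-84315688, plus strand), was higher in TRAP mutants although it was lower in sorted mutants. Its TRAP log2(value + 1) was 4.30, 2.43 and 3.04 in controls and 5.95, 5.43 and 6.04 in mutants, so that all mutants lay above all controls. The log2 fold change was 2.55 (standard error 0.53, limma, adjusted p = 0.26). It passed the thresholds in 14 of the 15 other settings that kept it, with adjusted p = 0.0183 to 1 over these settings, and did not pass when all 4 TRAP groups entered one fit. In the sorted libraries Parvb gave 10.11 and 8.82 in controls 144a and 176, 9.49, 9.55 and 9.30 in controls 45, 48 and 144b, 8.30 and 8.67 in mutants 167 and 191, and 7.78, 8.79 and 8.94 in mutants 61, 74 and 103. Net1, a RhoA exchange factor, gave 2.39, 2.98 and 0.00 in TRAP controls and 3.67, 4.46 and 4.09 in mutants (log2 fold change 2.29, limma, adjusted p = 0.57), control 3 being listed at 0, without which the fold change was 1.39. In these libraries the summed signals of astroglial, microglial and vascular markers were also higher in mutants than in controls (8.59 to 9.02 against 6.72 to 7.68, 5.94 to 6.77 against 0.64 to 3.69, and 5.48 to 6.48 against 1.69 to 4.73), and their part in these 2 results was not tested.

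The second member past the thresholds was E030025P04Rik, on chromosome 11, whose assembled locus lies opposite to the named transcript. SmartSeq libraries do not mark strand, so reads from either strand cannot be told apart there. It was listed at 0 in all 6 TRAP controls and gave 20.02, 19.89 and 14.60 in mutants without and 19.70, 19.91 and 20.16 in mutants with rapamycin. The mutants were thus apart from the controls in every TRAP library, and mutant 3 without rapamycin, the library of low total signal, was lowest (limma, adjusted p = 0.00854 without rapamycin, and adjusted p = 3.5e-05 with it). No fold is given against groups listed at 0. The locus took 18.9% to 21.7% of the total signal of 5 of these 6 mutant libraries and 2.89% of the sixth, mutant 3, against 0.0701% to 0.412% in the sorted libraries. In sorted PCs the same locus was high in every library, at 17.97 and 15.96 in controls 144a and 176, 17.32, 18.04 and 16.10 in controls 45, 48 and 144b, 15.46 and 15.93 in mutants 167 and 191, and 16.95, 16.68 and 16.86 in mutants 61, 74 and 103. Its sorted controls 176 and 144b lay within the range of the mutants.

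**Figure D3:**
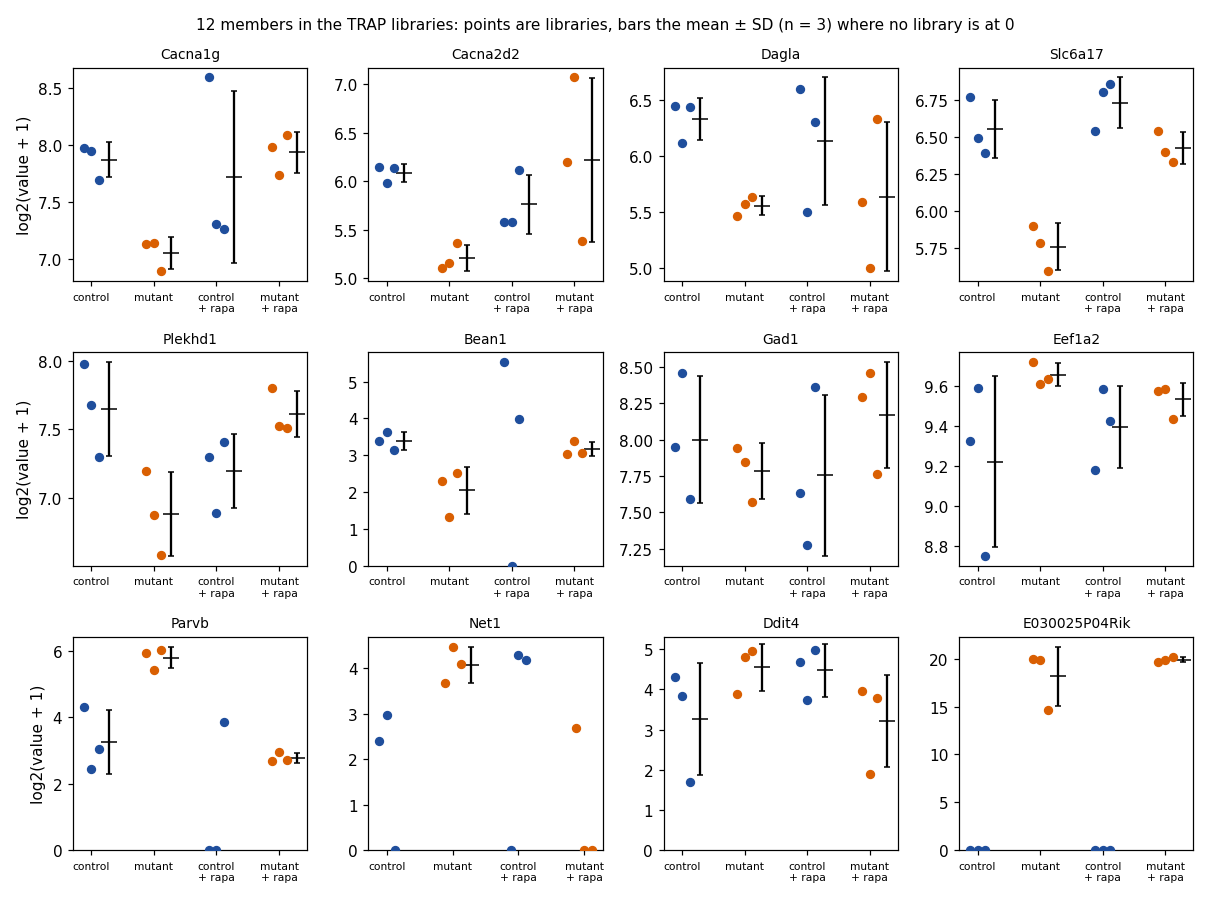
TRAP log2(value + 1) of 12 members in the 4 groups (3 libraries each), with points for libraries and bars for the mean ± SD where no library is at 0. The y axes differ between panels and do not all start at 0. Cacna1g, Cacna2d2, Dagla, Slc6a17, Plekhd1 and Bean1 lie lower in all mutants than in all controls without rapamycin. Parvb, Net1, Eef1a2 and E030025P04Rik lie higher. Of all 39 members tested, 8 lay lower and 7 higher, against 6.81% and 8.55% of all loci.

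Under rapamycin the genotypes were compared in separate libraries. Again 39 members passed the filter, 16 with a fold change below 0, and the median was 0.14 against 0.32 over 8728 loci. E030025P04Rik alone was past the thresholds, 1 of 39 against 1.23% of all loci. All mutants lay lower for 3 members and higher for 5, against 4.4% and 7.37% of all loci. The lowest fold changes were in Gm10190 (-2.68), Kif17 (-1.82) and Ddit4 (-1.26), and, next to E030025P04Rik, the highest were in Bcar1 (2.24) and Fam222a (2.00). Gm10190 passed the filter only through the controls with rapamycin. It gave 3.74, 3.69 and 3.24 there and 0.02, 2.60 and 0.00 in mutants, yet it was listed at 0 in all 3 controls without rapamycin. None of these passed the thresholds. Without mutant 2 the values of Kif17 and Ddit4 were -1.08 and -0.60, and that of Bcar1 was 1.22 without control 2 and 3.96 without control 3. Of 37 members tested in both genotype comparisons, 18 had the same sign in both, or 48.6% against 53.9% over the 8285 loci tested in both, and 7 were below 0 in both. Without E030025P04Rik the fold changes had a Pearson r of -0.06 over 36 members (0.21 over all loci), a description across genes.

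**Figure D4:**
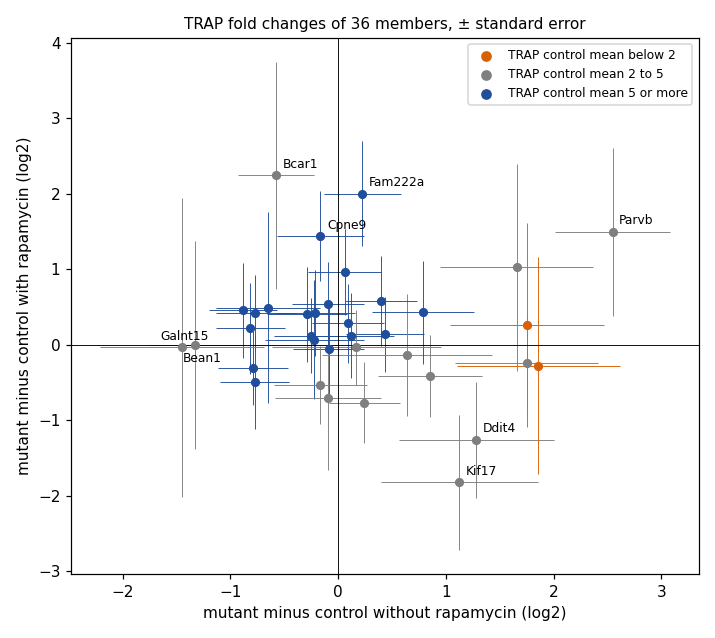
TRAP log2 fold change of mutants against controls without rapamycin (x axis) and with rapamycin (y axis) for 36 members tested in both, with standard errors and colours for the level in TRAP controls. The points scatter around 0 in both directions, and 7 members lie below 0 in both comparisons.

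Rapamycin was also compared with no rapamycin within each genotype, with libraries shared with the comparisons above. In mutants 40 members passed the filter and 2 were lower past the thresholds, against 1.75% of all 9664 loci, while 7 were at an unadjusted p under 0.05, against 8.31% of all loci. Parvb fell by 3.02 on the log2 scale (standard error 0.33, limma, adjusted p = 0.132), with 2.68, 2.95 and 2.71 with rapamycin, all below the 5.95, 5.43 and 6.04 without, and it passed in all 15 other settings that kept it. Net1 fell by 3.18 (limma, adjusted p = 0.498), with 2.68, 0.00 and 0.00 with rapamycin. It passed the filter through the mutants without rapamycin (mean 4.08, against 0.89 with it). The Net1 call was lost in 7 of 15 other settings, among them each of the 5 in which mutant 1, 2 or 3 or rapamycin-treated mutant 2 or 3 was left out. In the same libraries the vascular sum was 4.39 to 5.801 with and 5.48 to 6.48 without rapamycin, the astroglial sum 5.96 to 7.59 with and 8.59 to 9.02 without, and the microglial sum 3.04 to 4.75 with and 5.94 to 6.77 without. The part of these cells in both results was not tested. In mutants Cacna1g gave 7.98, 7.74 and 8.09 with rapamycin (log2 fold change 0.88, limma, adjusted p = 0.598) and Bean1 gave 3.04, 3.38 and 3.07 (1.11, adjusted p = 0.598). Both lay above all mutants without rapamycin, but neither passed the thresholds. Both genes were shown above for low values in those same mutants, so nothing is read from their rise.

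In controls 38 members passed the filter and none passed the thresholds in limma, against 1.05% of 8682 loci. At an unadjusted p under 0.05 there were 2 members, Panx2 (1.87) and Fam222a (-1.92), against 460 of 8682 loci. Limma-voom also called none, against 84 of 8682 loci. The interaction of genotype and rapamycin was past the thresholds for 175 of 9174 loci (1.91%) and for none of the 38 members tested. At an unadjusted p under 0.05 there were 5 of the 38 members, against 552 of 9174 loci. Of these 2 lay above 0, and 3 lay below 0, namely Ddit4 (-2.55), Kif17 (-2.95) and Net1 (-4.22). The value of Net1 rests in part on libraries listed at 0. The median interaction was 0.19 over the 38 members, against 0.33 over all loci. Limma-voom called 1 member, Plekhd1, against 234 of 9174 loci. For Parvb the interaction was -1.05 (limma, adjusted p = 0.924), so that its genotype difference was not shown to change with rapamycin. Slc6a17 (-0.79 between genotypes without rapamycin) and Plekhd1 (-0.77) fall outside the naming rule and were picked once their values were known.

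Of the 24 ion channel loci 16 were tested without rapamycin, with none past the thresholds in either direction, and of the 20 scaffold loci 17, with none. Of the 33 calcium signalling loci 29 were tested, with 1 higher and 2 lower. The phosphoinositide and diacylglycerol list gave 1 higher of 17 tested, and the mTOR and nutrient list 1 lower of 9. The PC marker list gave 1 lower of 22, and the transmitter and GABA list 1 lower of 5. With rapamycin, the calcium and the mitochondrial lists gave 1 higher each and the other 16 lists gave none. Without rapamycin, the loci higher and lower past the thresholds were 3 and 0 of 12 G protein genes, 2 and 0 of 24 microtubule and motor genes, 2 and 0 of 35 small GTPase and actin genes, 2 and 1 of 25 mitochondrial genes, 1 and 0 of 11 ribosome and translation genes, 2 and 1 of 4 astroglial markers and 1 and 0 of 2 vascular markers. Ubiquitin and proteasome genes gave 0 higher and 1 lower of 31, and none was called among 17 vesicle genes, 1 oligodendrocyte and 1 microglial marker tested. Over all loci 189 of 9658 (1.96%) were past the thresholds without rapamycin and 107 of 8728 (1.23%) with it. The lists hold only symbols named in the study's gene lists, which rest in part on its TRAP values. Nothing is therefore read from the counts per list. No list was tested as a set, and the balance depends on the scaling, since 91 of all loci were higher and 98 lower with the deposited scaling but 83 and 5 with equal totals, and with rapamycin 84 and 23 became 45 and 50.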

How the data were processed

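Total RNA of sorted Purkinje cells (10 libraries) and TRAP RNA (12 libraries) were analysed from 2 deposited tables. According to the methods and the submitters' processing notes, reads were trimmed with Trimmomatic 0.39, mapped with STAR 2.7.0f to GRCm38 and quantified with Cufflinks 2.2.1. In both tables the deposited values are a signal, which the authors obtained by dividing estimated fragments per locus by one size factor per library, and the tables were scaled separately, so levels were not tested across them. Between 79.5% and 95.7% of low values of a library were whole multiples (tolerance 0.02) of one step, which gave the depth in fragments, and no count test was the main test. Values that stand for 0 were set to 0, and every value was taken as log2(value + 1), on which a fold change of a low gene is understated. Limma 3.58.1 (R 4.3.3; lmFit, eBayes, Benjamini-Hochberg) was fitted to all TRAP loci with a mean of 2 or more over the groups compared, with the study's thresholds. Alternatives were other scalings, pseudocounts of 10 and 0.1, filters, a trend, a replicate block, one fit of all groups, and each library left out. Places are from GENCODE vM21. Named were the 12 lowest members, members past the thresholds, the 3 lowest and 3 highest TRAP fold changes in each genotype comparison, up to 4 members of each list, and the loci at the limit. The members and lists were chosen with earlier results of these data known. The fits were also run on simulated counts with the same spread parameter for every locus and no group held at 0. These differ from the data, so nothing is read from them about the calls given here.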

Additional observations from a re-analysis of the deposited data

Results flagged for a closer look

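Among the 120 sets of 5 sorted values (60 members in controls and in mutants), 5 had one library far from the other 4, and chance marks about 1 in 20 such sets. In the sorted mutants, 8430408G22Rik was at 3.26 in library 61 against 6.75 to 7.88 in the other 4, Gm45819 was at 9.39 in library 191 against 7.52 to 7.96, and Cabp1 was at 6.91 in library 103 against 8.70 to 9.38. In the sorted controls, Zfp422-ps was at 9.90 in library 45 against 8.76 to 9.07, and Slc7a15 was at 14.47 in library 144a against 13.46 to 13.56. These 5 values came from 5 different libraries.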

How the results depend on the processing

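With equal totals the loci past the thresholds were 88 (mutant against control) and 31 (interaction), and the members' median was 0.47 without and -0.23 with rapamycin between genotypes and -0.71 for rapamycin in mutants, where the medians of all loci were 0.47, -0.08 and -0.81. With quantile normalization the members' median without rapamycin was 0.10, against 0.06 over all loci. Under rapamycin 2 of 37 members were called, against 125 of 8292 loci. A pseudocount of 10 gave 2 of 39 members called under rapamycin, against 111 of 8728 loci. It also gave a median of -0.056 for rapamycin in controls (-0.10 over all loci) and 95 loci for the interaction. A pseudocount of 0.1 gave 55 loci and a median of 0.28 under rapamycin (0.46 over all loci) and 39 loci for rapamycin in controls. For rapamycin in mutants it gave 1 of 40 members, against 120 of 9664 loci. Without the filter 490, 514, 489, 440 and 392 loci were past the thresholds (genotype without and with rapamycin, rapamycin in controls and in mutants, interaction). There were 3 members in the second and 3 in the third, with 19863 and 19010 loci tested. The members' median in the first was 0.20, against 0.13 over all loci. With the filter at 5 there were 120, 39, 12, 95 and 20 loci, with 1 member in the first and 0 in the fourth, fewer loci being tested. In the first the members' median was -0.16, against 0.01 over all 2916 loci, and 13 of 21 members were below 0. An eBayes trend gave 53 loci for rapamycin in controls and 101 for the interaction. One fit of all 4 groups gave 65, 306, 292 and 59 loci and 1, 3, 2 and 1 members. Both remaining settings were chosen after seeing the data. Limma-voom gave a median of 0.33 under rapamycin (0.40 over all loci) and 267 loci for rapamycin in mutants. Members with a control mean of 5 or more had medians of -0.19 without rapamycin and -0.24 for rapamycin in controls. The last choice used the control arm of the comparison itself. Where no construction is named, the cause was not tested.

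The TRAP numbers did not pair the samples (correlations of deviations of same-numbered libraries -0.08 to 0.05). The replicate block gave 64 loci under rapamycin and 100 for rapamycin in mutants, and it left the number of members called as it was in every comparison. Leaving out 1 library gave 98 to 354 loci, 2 to 5 members and medians of -0.13 to 0.11 without rapamycin, 36 to 430, 1 to 2 and 0.092 to 0.355 with it, 29 to 434, 0 to 1 and -0.30 to 0.062 for rapamycin in controls, 72 to 221, 1 to 2 and -0.09 to 0.16 for rapamycin in mutants, and 121 to 529 loci for the interaction. The 5 members without control 2 were Parvb, Net1, Slc7a15, Padi2 and E030025P04Rik, and without mutant 3 Galnt15 also passed. Loci past the thresholds moved by over 1.5 times without control 2 (354) or mutant 1, 2 or 3 (117, 98 and 121) in the comparison without rapamycin, and without any one of the 6 libraries in the comparison with it. In the sorted table the median of A was -1.48 to -0.63 and of B -2.18 to -1.83 over the libraries left out, and 38 to 60 of the 60 members stayed selected, the fewest (38) without 167, 144a or 176.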

Other observations

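Several members outside the fixed lists were among the best detected in TRAP. Ppp1r1b, which encodes DARPP-32, had a sorted A of -1.03 and B of -1.09 and TRAP values of 8.01, 7.73 and 7.47 in controls and 7.69, 7.88 and 7.91 in mutants. Gp1bb, known as a platelet glycoprotein subunit, had -0.92 and -2.01, with TRAP values of 9.08, 8.69 and 8.78 and 8.96, 8.47 and 8.38. Wiz, a zinc finger partner of histone methyltransferases, had -0.85 and -2.94, with 6.15, 6.52 and 6.34 and 6.34, 6.45 and 5.94. In these 3 genes, chosen after their values were seen, the TRAP groups overlapped.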
